A study of Mus musculus with 2 samples.

Results

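Of the 32285 genes listed for each library, 9 enzymes of glutathione use and detoxification were followed in the cells of the mouse uterus. They were 4 glutathione S-transferases (Gsta1, Gsta4, Gstm1 and Gsto1), 2 glutathione peroxidases (Gpx2 and Gpx3), the quinone reductase Nqo1, the heme oxygenase Hmox1 and the aldo-keto reductase Akr1b8. They were chosen by symbol, and all 9 symbols were found in both libraries. The choice was made with levels from these same libraries in view, so the levels and ratios of the 9 genes are given as descriptions.

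Whole uteri of female C57BL/6J mice aged 6 months were digested to single cells and profiled by droplet-based sequencing of transcript 3' ends, which counts unique molecular identifiers (UMIs). The control mice carried floxed alleles of Prickle1, a gene of planar cell polarity, and the conditional knockout (cKO) mice carried the same alleles plus an iCre recombinase driven by Ltf, the lactoferrin gene. The uteri of 3 mice were pooled for each group and gave 1 library, which leaves no replicates: genotype, animals and library preparation cannot be told apart, and no p-value was computed. Groups follow the sample titles, although the genotype field reads wild-type for both.

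Glutathione is a small thiol that cells spend in 2 ways: transferases couple it to reactive electrophiles, and peroxidases use it to reduce peroxides. Quinone reductases, aldo-keto reductases and heme oxygenase remove other reactive compounds, and many of these genes are known targets of the transcription factor NRF2. In the uterus, the luminal and glandular epithelium faces the lumen, the stroma and smooth muscle lie beneath it, and resident macrophages clear dying cells and iron.

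The window before the start site is shown for 4 members: the 3 whose control level was highest in epithelial cells, and Gpx3, whose ratio between the libraries was the furthest from 1 in those cells. The sequences are the 250 bases before the start site in RefSeq on GRCm38.p6, 5' to 3' on the gene's strand, from chr9:78230419-78230668 (Gsta1, plus), chr19:47854723-47854972 (Gsto1, plus), chr12:76795555-76795804 (Gpx2, minus) and chr11:54902604-54902853 (Gpx3, plus). Capitals mark any match to the motifs named in the next paragraph.
Gsta1: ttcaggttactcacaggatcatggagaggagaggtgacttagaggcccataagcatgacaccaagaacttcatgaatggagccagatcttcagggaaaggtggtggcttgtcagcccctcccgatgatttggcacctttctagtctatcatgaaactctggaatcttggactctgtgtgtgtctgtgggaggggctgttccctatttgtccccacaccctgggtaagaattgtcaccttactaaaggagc
Gsto1: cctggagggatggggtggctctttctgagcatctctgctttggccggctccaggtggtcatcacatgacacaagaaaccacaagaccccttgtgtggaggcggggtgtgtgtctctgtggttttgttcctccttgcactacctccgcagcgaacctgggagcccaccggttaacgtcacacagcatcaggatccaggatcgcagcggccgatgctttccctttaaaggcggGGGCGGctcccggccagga
Gpx2: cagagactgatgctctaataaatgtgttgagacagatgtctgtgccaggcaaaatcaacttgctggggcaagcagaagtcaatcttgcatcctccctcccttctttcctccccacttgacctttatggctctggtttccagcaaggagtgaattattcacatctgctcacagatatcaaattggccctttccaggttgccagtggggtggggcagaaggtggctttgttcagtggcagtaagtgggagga
Gpx3: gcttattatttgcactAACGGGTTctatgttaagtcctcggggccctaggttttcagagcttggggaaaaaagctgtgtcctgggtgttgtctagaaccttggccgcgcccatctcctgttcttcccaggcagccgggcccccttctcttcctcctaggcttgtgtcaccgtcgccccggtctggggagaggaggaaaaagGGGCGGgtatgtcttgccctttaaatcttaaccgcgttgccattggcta

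The RefSeq table held windows for 7 of the 9 members (8 windows, since Gstm1 had 2 start sites), each reaching from 250 bases before to 50 after the start site. It held no entry for Gsta4 or Hmox1. Both strands were searched for TGACNNNGC, the core of the antioxidant response element bound by NRF2, and for TGANTCA, the AP-1 site, which can overlap it. Neither was in any of the 8 windows, while 12.4% and 7.81% of all 32851 windows of the table held them. With 8 windows, of which the 2 of Gstm1 overlap, nothing is read from this absence. Bases further upstream were not searched. After these 2 motifs, 3 further ones were added: TATAAA (13.6% of all windows), the GC box CCGCCC (35.7%) and AACNGGTT, a grainyhead-like site (2.09%). Gpx3 held the AACNGGTT motif at position -234 relative to the start site and a GC box at -49. Gsto1 held a GC box at -19 and another at 10, past the printed stretch. Nqo1 held TATAAA at -29 and GC boxes at -79 and -47, Akr1b8 held 2 adjoining GC boxes at -49 and -43 and TATAAA on the reverse strand at -159, and the second Gstm1 start site held TATAAA at -30. The Gsta1 and Gpx2 windows held none of the 5. A match is a description of these letters and not of binding.

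A barcode counted as a cell with at least 500 genes and at most 20% mitochondrial UMIs, which left 3653 control and 4950 cKO cells with medians of 4650 and 5944 UMIs, and the libraries shared 5 cell barcodes. Cells were placed in a class by a UMI of 1 gate gene and none of the other 4: Epcam (epithelial), Pdgfra (stromal), Actg2 (muscle), C1qa (macrophage) or Msln (mesothelial). A further 1359 control and 2433 cKO cells had no gate gene, and 159 and 198 had several. Prickle1, the targeted gene, was at 0.827 CPM (UMIs per 1000000 UMIs of the cells summed) in control epithelial cells and 1.28 CPM in cKO ones, from 14 and 4 UMIs. Over all cells it was at 2.65 CPM in control (100 UMIs) and 8.24 CPM in cKO (436 UMIs), so it was not lower in the library labelled cKO. The mix of classes also differed, with 26.1% and 2.20% epithelial and 17.3% and 30.6% stromal cells. Its part in the all-cell levels was not tested. The position of the deleted part relative to the 3' tag was not checked, and a tag outside that part would not check the labels. Ltf, whose promoter drives the recombinase, had a UMI in 83.5% of control and 25.7% of cKO epithelial cells.

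The epithelial class differed in size and make-up between the libraries. It held 953 cells in control (26.1% of cells) and 109 in cKO (2.20%), with median depths of 6195 and 12093 UMIs per cell. Krt8, a keratin of simple epithelia, was detected in 94.96% and 51.4% of them, and the tight junction gene Cldn4 in 87.8% and 35.8%. Ptprc, the pan-leukocyte gene CD45, was detected in 38 of 953 control cells and in 50 of 109 cKO cells. The summed level of 7 epithelial markers besides Epcam was 11205 CPM in control and 8218 CPM in cKO, none of them at 0. Summed lymphoid markers were at 15.8 and 226 CPM, dendritic cell markers at 31.9 and 159 CPM, muscle markers at 31.1 and 523 CPM, and endothelial markers at 5.20 and 109 CPM. The Epcam gate thus went only in part with keratin in the cKO library, and the epithelial level of each member is also given below for cells with a Krt8 or Krt18 UMI and no Ptprc UMI (901 control and 51 cKO cells), a subset defined after these values were seen.

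In the class gated by Epcam, 7 of the 9 members were at least 2-fold higher in the cKO library, none was at least 2-fold lower, and Gsto1 and Akr1b8 lay within 2-fold. Over all 12698 genes compared in this class (at least 20 UMIs over both libraries), 26.3% were at least 2-fold higher, 10.8% were at least 2-fold lower and 37.1% passed the fold either way. Because the members were chosen with these values in view, nothing is read from the difference between those shares. The median log2 ratio was 1.61 over the members and 0.40 over all genes. With TMM factors, which moved epithelial log2 ratios by -0.53, 6 members were higher and none lower, beside 13.5% and 19.7% of all genes. In keratin-positive cells without Ptprc 6 members were higher and none lower, beside 21.4% and 13.6% of all genes. In cells of 2000 to 20000 UMIs 4 were higher and 2 lower of 8 compared, beside 32.2% and 18.2% of all genes. In cells positive for several gate genes none of the 9 members was at least 2-fold higher and 4 were at least 2-fold lower in cKO, beside 8.52% and 8.86% of all 12226 genes compared there. The 4 were Gsta1 (12.5 and 2.28 CPM), Gsto1 (960 and 152 CPM), Gpx2 (11.1 and 4.18 CPM) and Nqo1 (52.9 and 14.6 CPM). In these cells the summed epithelial markers were at 4634 CPM in control and 1067 CPM in cKO, and the stromal markers at 5732 and 8900 CPM; their part in the 4 ratios was not tested. With all Epcam-positive cells taken whatever the other gate genes (1048 control and 183 cKO cells), 6 members were higher and none lower, beside 29.5% and 9.70% of all genes, and Nqo1 was at 25.4 and 29.4 CPM. Of those cells, 23 in control and 45 in cKO also had a Msln UMI, and these held the mesothelial gene Upk3b at 149 and 492 CPM and the stromal gene Dcn at 5251 and 9255 CPM, with a UMI of Cldn4 in 7 and 2 of them. Ratios carry exact 95% intervals that cover counting error only, not the spread between cells or between mice.

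**Figure D1:**
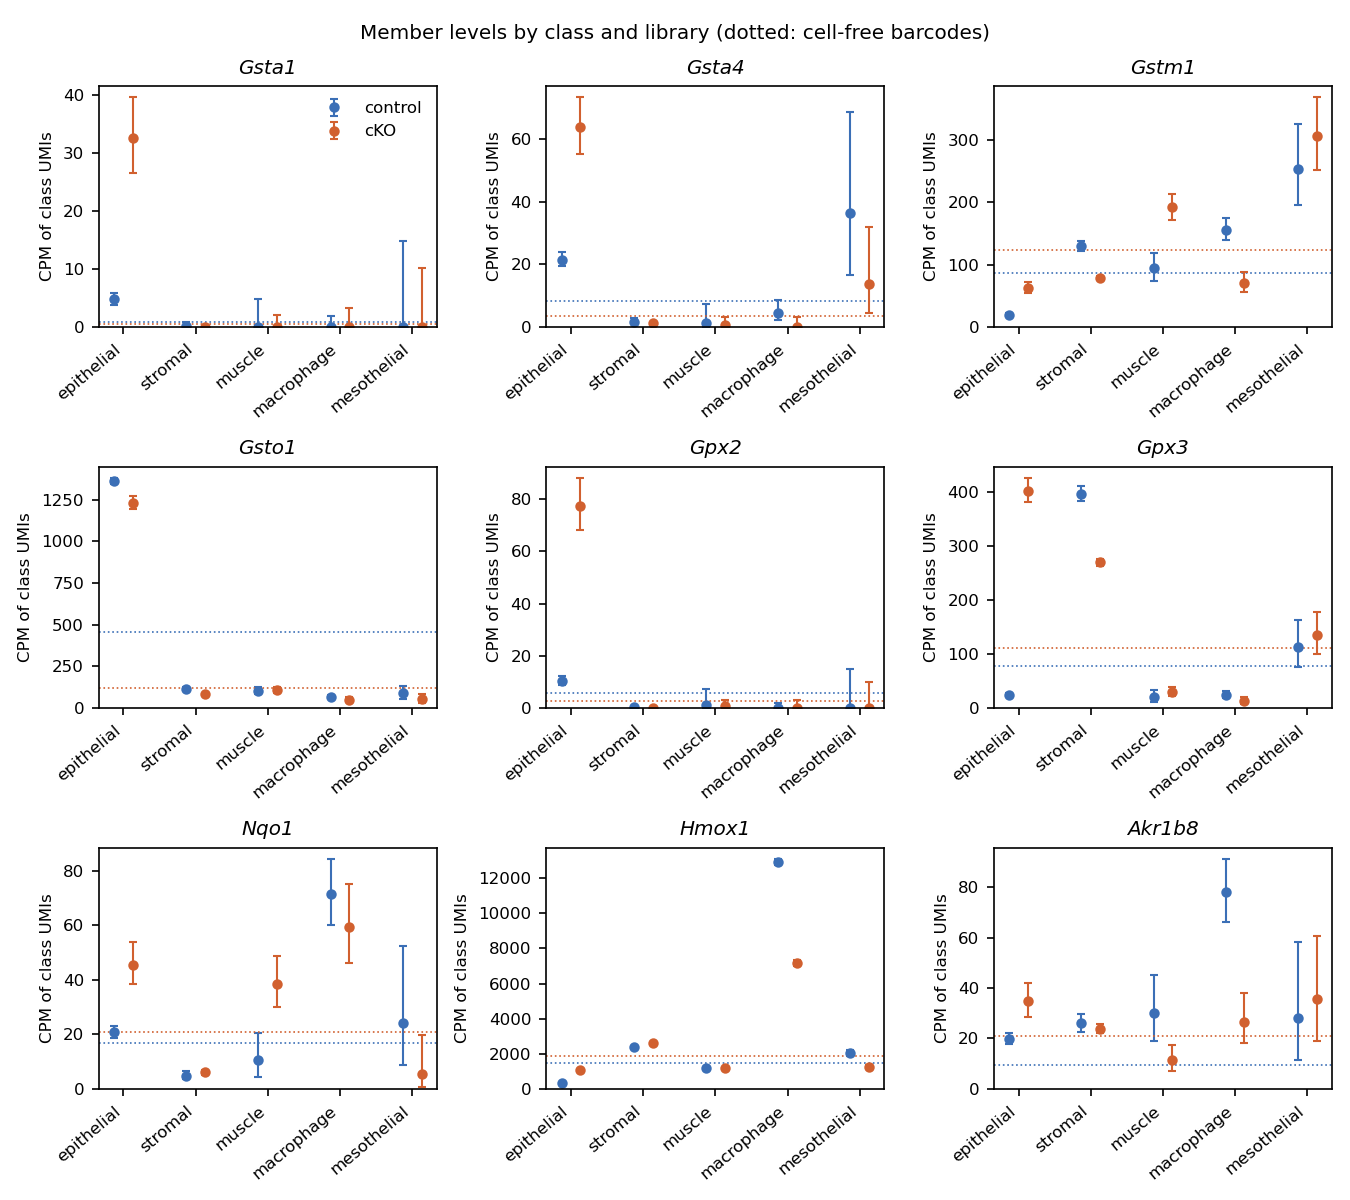
Level of each member in CPM (linear axes that differ between panels) in 5 classes of control (blue) and cKO (orange) cells; bars are exact Poisson 95% intervals of counting error, and dotted lines give the level in barcodes with at most 100 UMIs. Gsta1 and Gpx2 stand above 0 in the epithelial class and near 0 elsewhere, Gpx3 is near 24.4 CPM in control epithelial cells and 402 CPM in cKO ones, and Hmox1 is highest in macrophages of both libraries.

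Gsta1 (ENSMUSG00000074183, chr9:78230656-78242684, plus strand) encodes an alpha-class transferase. In epithelial cells it had 80 UMIs in control (4.72 CPM) and 102 in cKO (32.6 CPM), a ratio of 6.89 (5.09 to 9.36). Those UMIs sat in 16 of 953 and 10 of 109 cells, and 1 cell held 21.2% of them in control and 31.4% in cKO. In the other 4 classes and in ungated cells the gene was at or near 0 in both libraries, with 2 and 1 UMIs in stroma and none in the rest. In control macrophages 0 UMIs allow a level of up to 1.51 CPM (3 counts of the class total). Cells with several gate genes held 35.4% of the control UMIs (45 UMIs in 4 of 159 cells) and 10.4% of the cKO UMIs (12 UMIs in 3 of 198 cells), and there the cKO level was 5.50-fold lower (2.86 to 11.4), beside summed epithelial markers of 4634 and 1067 CPM. With every Epcam-positive cell taken, the levels were 6.45 and 20.3 CPM. The near-identical alpha-class gene Gsta2 had 8 and 13 UMIs, and how reads common to both were assigned is not given in the sources used here. All 102 cKO UMIs came from the 36 cells over 20000 UMIs, where the level was 39.9 CPM against 5.96 CPM in the 251 control cells of that depth. Between 2000 and 20000 UMIs per cell, 616 control cells gave 3 UMIs of the gene and 66 cKO cells gave 0, a difference not detectable at this depth. In the keratin-positive cells without Ptprc the levels were 4.60 and 21.3 CPM.

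Gsta4 (ENSMUSG00000032348, chr9:78182774-78209349, plus strand) lies on the same chromosome as Gsta1 and encodes the alpha-class enzyme known for conjugating 4-hydroxynonenal, a product of lipid peroxidation. Its epithelial level was 21.5 CPM in control (364 UMIs in 101 cells) and 63.8 CPM in cKO (200 UMIs in 13 cells), a ratio of 2.97 (2.49 to 3.54). This ratio also depended on depth: cells over 20000 UMIs had 25.8 and 76.7 CPM, and cells of 2000 to 20000 UMIs had 7.46 and 7.05 CPM. The levels in keratin-positive cells without Ptprc were 21.3 and 61.2 CPM, with 47.9% of the cKO UMIs in 1 cell. In control the mesothelial class stood at 36.2 CPM from 9 UMIs, with an interval that overlaps the epithelial one. Stroma had 1.70 and 1.23 CPM, and macrophages had 9 UMIs in control and 0 in cKO.

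Gstm1 (ENSMUSG00000058135, chr3:108012255-108017973, minus strand) encodes a mu-class transferase, one of a cluster of similar genes whose common reads may be split by the counting. It was the transferase with the lowest epithelial share of its own UMIs: 12.1% in control and 4.05% in cKO, while stroma held 39.1% and 43.7%. The epithelial level was 19.5 CPM in control (330 UMIs in 128 cells) and 62.6 CPM in cKO (196 UMIs in 49 cells), a ratio of 3.21 (2.68 to 3.84). Both lay below the level in cell-free barcodes (at most 100 UMIs), 86.9 CPM in control and 122.5 CPM in cKO, and the part of free RNA in the ratio was not tested. The ratio had the same direction at both depths, with 28.3 against 65.2 CPM at 2000 to 20000 UMIs and 16.7 against 61.1 CPM above. Keratin-positive cells without Ptprc had 19.2 and 59.7 CPM.

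Gsto1 (ENSMUSG00000025068, chr19:47854970-47864790, plus strand) encodes an omega-class transferase, which acts as a thiol transferase and reductase. It was an epithelial gene in both libraries: 1362 CPM in control (23076 UMIs in 782 of 953 cells) and 1233 CPM in cKO (3863 UMIs in 62 of 109 cells). In control the epithelial level was 11.8 times the stromal one (11.1 to 12.6). Its ratio was 0.905 (0.874 to 0.936), the only epithelial ratio below 1 among the 9. That single figure covered a difference by depth. In cells over 20000 UMIs the 2 levels were 1514 and 1469 CPM, whereas cells of 2000 to 20000 UMIs had 862 and 178 CPM. With keratin required and Ptprc absent, the 2 levels at 2000 to 20000 UMIs were 899 CPM (581 cells) and 396 CPM (20 cells), and over 20000 UMIs they were 1506 and 1552 CPM. Over all depths that subset was at 1368 CPM in control and 1439 CPM in cKO, on the other side of a ratio of 1 from the whole class. With each cell thinned to 1000 UMIs, the expected share of cells with a Gsto1 UMI was 47.9% in control and 25.7% in cKO, and unthinned it was 82.1% and 56.9%. After 1 random thinning to 5000 UMIs it was 90.4% of 544 control and 52.9% of 85 cKO cells. In keratin-positive cells without Ptprc it was then 92.2% of 512 and 88.9% of 36. In cell-free barcodes Gsto1 was at 453 CPM in control and 122.5 CPM in cKO. One cKO cell held 22.3% of the class's Gsto1 UMIs.

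Gpx2 (ENSMUSG00000042808, chr12:76792333-76795554, minus strand) encodes the peroxidase known from the lining of the gut. Its UMIs were confined almost wholly to epithelial cells, which held 78.3% of them in control and 86.5% in cKO, with most of the rest in cells positive for several gate genes. Macrophages and mesothelial cells had none in either library, stroma had 2 and 4, and muscle had 1 and 1. The epithelial level was 10.5 CPM in control (177 UMIs in 79 cells) and 77.6 CPM in cKO (243 UMIs in 32 cells), a ratio of 7.42 (6.09 to 9.06). The cKO value was higher at both depths, 21.2 against 9.001 CPM and 90.0 against 10.8 CPM, although the former rests on 12 cKO UMIs in 6 cells. Keratin-positive cells without Ptprc stood at 10.1 and 95.6 CPM.

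Gpx3 (ENSMUSG00000018339, chr11:54902453-54910377, plus strand) encodes the secreted peroxidase of plasma and extracellular fluid. In control it was a stromal gene, at 396 CPM in stroma and 24.4 CPM in epithelial cells, 16.3 times apart (14.7 to 18.0). In cKO the epithelial class stood at 402 CPM, above the stromal class at 269 CPM. The epithelial ratio was 16.5 (14.7 to 18.5), from 413 UMIs in 190 control cells and 1259 UMIs in 48 cKO cells, while the stromal ratio was 0.680 (0.652 to 0.709). The same direction was seen in epithelial cells of 2000 to 20000 UMIs (22.4 and 201 CPM) and of over 20000 UMIs (24.8 and 443 CPM). It was also seen in keratin-positive cells without Ptprc, at 25.1 and 510 CPM, and within those at 23.8 and 535 CPM in the lower and 25.3 and 503 CPM in the higher depth range. Thinned to 1000 UMIs, 2.37% of control and 19.4% of cKO epithelial cells were expected to hold a Gpx3 UMI. The expected shares were 29.3% and 20.7% in stroma and 2.85% and 1.42% in macrophages. The unthinned shares were 19.9% and 44.0% in epithelial cells, 78.3% and 73.9% in stroma, and 16.7% and 10.3% in macrophages. The top cell held 4.12% of the epithelial UMIs in control and 19.4% in cKO. Cell-free barcodes held 76.8 and 112 CPM, and the stromal marker sum in the epithelial class was 66.8 and 166 CPM. Their part in the result was not tested. Dcn, the leading stromal marker, was at 28.4 CPM in control and 82.7 CPM in cKO epithelial cells, against 5869 and 4299 CPM in stroma.

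Nqo1 (ENSMUSG00000003849, chr8:107388225-107403206, minus strand) encodes the quinone reductase that is a standard readout of NRF2 activity. In epithelial cells it had 21.0 CPM in control (355 UMIs in 62 cells) and 45.6 CPM in cKO (143 UMIs in 18 cells), a ratio of 2.18 (1.78 to 2.65). Keratin-positive cells without Ptprc had 20.03 and 33.4 CPM, under 2-fold apart, and cells of 2000 to 20000 UMIs had 5.66 and 33.5 CPM with 84.2% of the cKO UMIs in 1 cell. The highest class in both libraries was the macrophage class, at 71.5 and 59.5 CPM. Ungated cells held 33.1% of the gene's UMIs in control and 60.4% in cKO.

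Hmox1 (ENSMUSG00000005413, chr8:75093621-75100589, plus strand) encodes the inducible enzyme that breaks heme down to biliverdin, iron and carbon monoxide. Epithelial cells were its lowest class in both libraries. The level there was 356 CPM in control (6027 UMIs in 494 cells) and 1087 CPM in cKO (3405 UMIs in 64 cells), a ratio of 3.05 (2.93 to 3.19). Cell-free barcodes stood higher, at 1491 and 1895 CPM, and the part of free RNA was not tested. The cKO level was higher in cells of 2000 to 20000 UMIs (308 and 492 CPM), over 20000 UMIs (371 and 1214 CPM) and among keratin-positive cells without Ptprc (329 and 1040 CPM). Thinned to 1000 UMIs, the expected shares of epithelial cells with a Hmox1 UMI were 15.9% and 28.1%, from 51.8% and 58.7% unthinned, beside 62.8% and 62.3% of thinned stromal cells.

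Akr1b8 (ENSMUSG00000029762, chr6:34354119-34368463, plus strand) encodes an aldo-keto reductase that reduces lipid aldehydes. Its epithelial level was 19.96 CPM in control (338 UMIs in 57 cells) and 34.8 CPM in cKO (109 UMIs in 13 cells), a ratio of 1.74 (1.39 to 2.17). One cell held 18.9% of the control UMIs and 36.7% of the cKO UMIs. Below 20000 UMIs per cell the order was the other way, 7.46 and 3.53 CPM in the range from 2000 (a log2 ratio of -1.08), from 29 and 2 UMIs. Keratin-positive cells without Ptprc had 19.8 and 31.4 CPM, and in the same depth range 8.04 and 10.7 CPM, again from 29 and 2 UMIs. The related gene Akr1b10 had 72 and 29 UMIs in the class and Akr1b7 had 2 and 0, and reads common to them may be split.

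**Figure D2:**
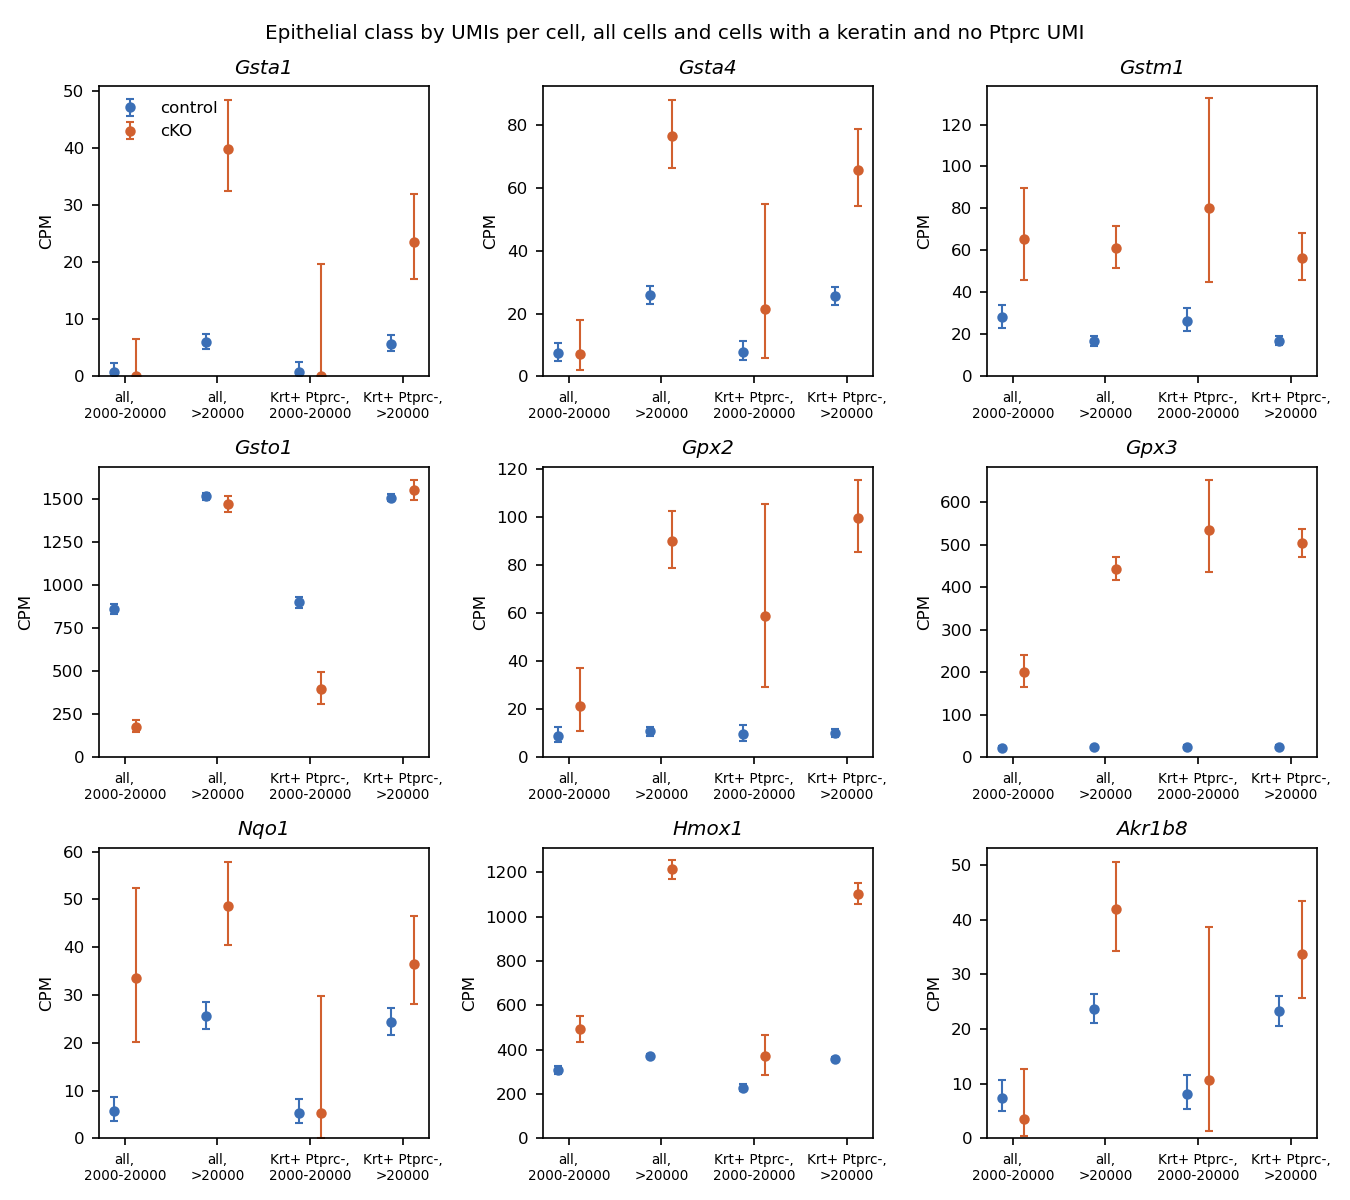
Level of each member in CPM (linear axes that differ between panels) in epithelial cells of 2000 to 20000 and over 20000 UMIs, for all cells of the class and for those with a Krt8 or Krt18 UMI and no Ptprc UMI; bars are exact Poisson 95% intervals of counting error. Gpx3 is higher in cKO (orange) than in control (blue) in all 4 pairs, whereas Gsto1 over all cells is at 862 and 178 CPM in the lower depth range and at 1514 and 1469 CPM in the higher one.

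The epithelial class was also divided by Ltf itself, since the recombinase depends on that promoter. Among cells with a Ltf UMI (796 control and 28 cKO cells, with median depths of 8075.5 and 40900.5 UMIs), Gsta1 was at 4.83 and 48.1 CPM, Gpx2 at 10.8 and 103 CPM, Gpx3 at 24.04 and 409 CPM, Hmox1 at 339 and 1006 CPM, and Gsto1 at 1398 and 1721 CPM. Among cells without one (157 and 81 cells), Gpx3 was at 34.0 and 388 CPM, Hmox1 at 831 and 1238 CPM, and Gsto1 at 374 and 325 CPM. The cKO levels of Gpx3 and Hmox1 were higher in both groups of cells. In the cells with a Ptprc UMI and up to 20000 UMIs (26 and 39 cells), Gpx3 was at 4.28 and 6.102 CPM, from 1 and 2 UMIs, and Gsto1 at 192 and 79.3 CPM, while Gsta1 and Gsta4 had at most 1 UMI each.

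In the stromal class, the 1513 cKO and 631 control cells gave 7 members with enough UMIs, and none was 2-fold apart. Among all 13707 genes compared there, 12.7% were at least 2-fold apart either way, 6.22% higher and 6.44% lower. The median log2 ratio was -0.46 over the 7 members and -0.01 over all genes. Gstm1 was at 130 CPM in control and 78.7 CPM in cKO (ratio 0.607, 0.564 to 0.654), and Gsto1 at 115 and 83.0 CPM (ratio 0.720). Hmox1 was at 2395 and 2643 CPM, Akr1b8 at 26.03 and 23.9 CPM and Nqo1 at 4.84 and 6.07 CPM. The peroxidase and transferases with intervals clear of 1 in stroma (Gpx3, Gstm1, Gsto1) were thus all lower in cKO, by less than 2-fold. The interval of Hmox1 was also clear of 1, on the higher side (ratio 1.10, 1.09 to 1.12).

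In the muscle class (291 and 546 cells, median depths of 1507 and 1607.5 UMIs), 6 members were compared, of which 2 were at least 2-fold higher and 1 at least 2-fold lower. The shares over all 9149 genes compared were 8.90% higher, 3.71% lower and 12.6% either way. Gstm1 was at 94.2 CPM in control (72 UMIs) and 192 CPM in cKO (338 UMIs), a ratio of 2.03 (1.57 to 2.66). Nqo1 was at 10.5 and 38.5 CPM, a ratio of 3.68 (1.77 to 8.88) that rested on 8 UMIs in 6 control cells and 68 UMIs in 19 cKO cells. The log2 ratio of Nqo1 turned to -0.57 in all Actg2-positive cells whatever their other gate genes and to -1.37 in cells over 20000 UMIs, where that of Gstm1 turned to -0.52. In all Actg2-positive cells none of 9 members compared was at least 2-fold higher and 3 were lower, beside 7.63% and 8.04% of all genes. Of those cells (369 control and 654 cKO), 28 and 11 also had an Epcam UMI and 31 and 84 a Pdgfra UMI. Akr1b8 was 2.65-fold lower (1.39 to 5.09), at 30.1 and 11.3 CPM from 23 and 20 UMIs. These are small counts in shallow cells, and summed red cell markers in the class stood at 51.0 and 1063 CPM. Their part in the differences was not tested.

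In the macrophage class (234 and 116 cells), 6 members were compared, of which 3 were at least 2-fold lower and none higher. Over all 8133 genes compared, 4.01% were at least 2-fold lower, 12.6% higher and 16.6% either way. TMM factors moved the log2 ratios of this class by -0.28, which gave 4 members lower, beside 6.81% of all genes lower and 7.14% higher. Akr1b8 was at 78.0 and 26.7 CPM, 2.92-fold lower (1.97 to 4.44), and Gstm1 was at 156 and 70.7 CPM, 2.21-fold lower (1.72 to 2.85). Gpx3 was at 24.2 and 12.1 CPM, 2.00-fold lower (1.09 to 3.93), from 48 and 14 UMIs. With all C1qa-positive cells taken whatever their other gate genes, 1 member was at least 2-fold lower, beside 4.35% of all genes, and the log2 ratio of Gpx3 turned to 0.42. Of those cells (281 control and 155 cKO), 14 and 26 also had a Pdgfra UMI and 13 and 1 an Epcam UMI. The count was also 1 with each cell given to the gate gene of most UMIs (3.63% of all genes lower) and with cells thinned to 1000 UMIs (6.69% lower, 3 members compared). Hmox1, by which macrophages recycle heme iron, was at 12929 CPM in control (25682 UMIs) and 7169 CPM in cKO (8313 UMIs), 1.80-fold lower (1.76 to 1.85). It was detected in 95.7% and 89.7% of macrophages, and in an expected 89.0% and 70.8% after thinning to 1000 UMIs. Nqo1 was at 71.5 and 59.5 CPM and Gsto1 at 67.5 and 50.02 CPM, both ratios with intervals that include 1. All 6 ratios were below 1. The summed macrophage markers other than C1qa were at 4142 CPM in control and 4222 CPM in cKO, while mast cell markers were at 8.05 and 196 CPM, endothelial markers at 41.3 and 265 CPM and red cell markers at 8.05 and 449 CPM. The part of those in the member ratios was not tested.

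The mesothelial class was the smallest, with 26 control and 35 cKO cells, and 5 members were compared, of which none was 2-fold apart. The share of all 5108 genes that were was 18.3%, with 14.3% higher and 4.09% lower, or 10.3% and 6.60% with TMM factors (a log2 shift of -0.17). Its defining markers Upk3b (507 and 837 CPM) and Wt1 (451 and 271 CPM) were present, and the stromal gene Dcn was also high (8571 and 10350.2 CPM). Gstm1 was at 254 and 306 CPM, the highest class for this gene in both libraries. Hmox1 was at 2030 and 1226 CPM, a ratio of 0.604, with 34.9% and 40.8% of its UMIs in 1 cell. The others were Gpx3 at 113 and 134 CPM, Gsto1 at 88.6 and 52.0 CPM and Akr1b8 at 28.2 and 35.6 CPM, each with an interval that includes 1. With all Msln-positive cells taken whatever their other gate genes (53 control and 89 cKO cells), 1 of 9 members compared was at least 2-fold higher and 6 were lower, beside 7.93% and 5.48% of all genes. The median log2 ratio was then -2.29 over the 9 members and 0.16 over all genes. Of those cells, 23 in control and 45 in cKO also had an Epcam UMI, and in these the epithelial gene Cldn4 was at 250 and 59.5 CPM, Gsto1 at 1742 and 156 CPM and the stromal gene Dcn at 5251 and 9255 CPM. The part of that make-up in the median was not tested.

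**Figure D3:**
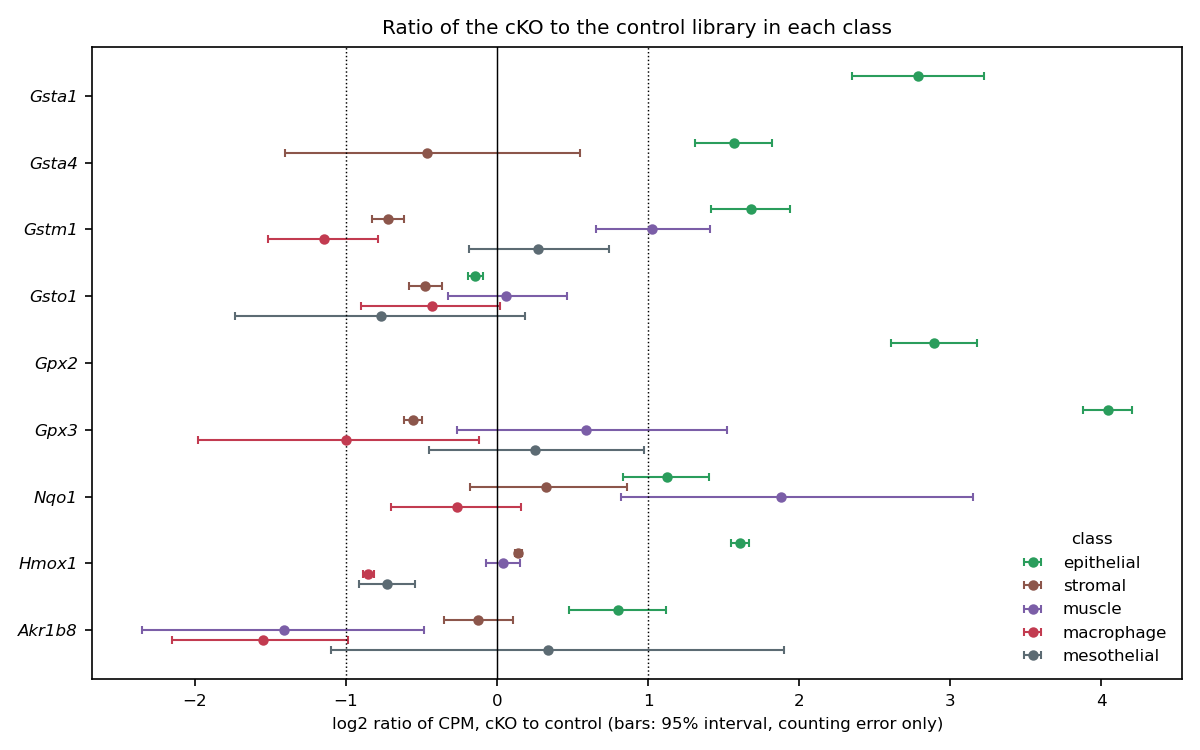
Log2 ratio of cKO to control CPM (horizontal axis) for each member with at least 20 UMIs over both libraries, by class; points are ratios of summed counts, bars are exact 95% intervals of counting error and dotted lines mark 2-fold. The epithelial points (green) lie right of 0 except for Gsto1, and the macrophage points (red) lie left of 0.

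The order of the classes differed between members, each ranked by its own CPM. In control the epithelial class was first for Gsta1, Gpx2 and Gsto1, the stromal class for Gpx3, the mesothelial class for Gsta4 and Gstm1, and the macrophage class for Nqo1, Hmox1 and Akr1b8. For Gsta4 the mesothelial and epithelial intervals overlapped, so their order is not resolved. The control epithelial interval of Gsta1 also overlapped those of muscle and mesothelium, and that of Gpx2 overlapped mesothelium, each at 0 UMIs. Those orders are not resolved either. Below the first place, neighbours in the order overlapped for Gsto1 from stroma through muscle and mesothelium to macrophages, and for Gpx3 from epithelial cells through macrophages to muscle. They overlapped for Nqo1 among the mesothelial, epithelial, muscle and stromal classes, and for Akr1b8 among muscle, mesothelium and stroma. No neighbours overlapped for Gstm1 or Hmox1 in control. These intervals leave out the spread between cells, and the control mesothelial class held 26 cells. In cKO the first place passed to the epithelial class for Gsta4 and Gpx3 and to the mesothelial class for Akr1b8, where its interval overlapped those of the epithelial, macrophage and stromal classes. The epithelial Nqo1 and macrophage Nqo1 intervals also overlapped in cKO.

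The class shares of a transcript depend on cell numbers (953 epithelial cells in control and 109 in cKO) as well as on its level. Epithelial cells held 80.6% of the Gsto1 UMIs found in control cells and 48.0% of those in cKO cells. The summed epithelial levels were 1362 and 1233 CPM, and the means of single-cell CPM were 1071 and 457. For Hmox1 the macrophage share was 34.1% in control and 6.70% in cKO, beside macrophage levels of 12929 and 7169 CPM. Its stromal share was 26.3% and 57.2%. The stromal share of Akr1b8 was 21.3% and 57.7%. For Gpx3 it was 70.8% and 70.2%.

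**Figure D4:**
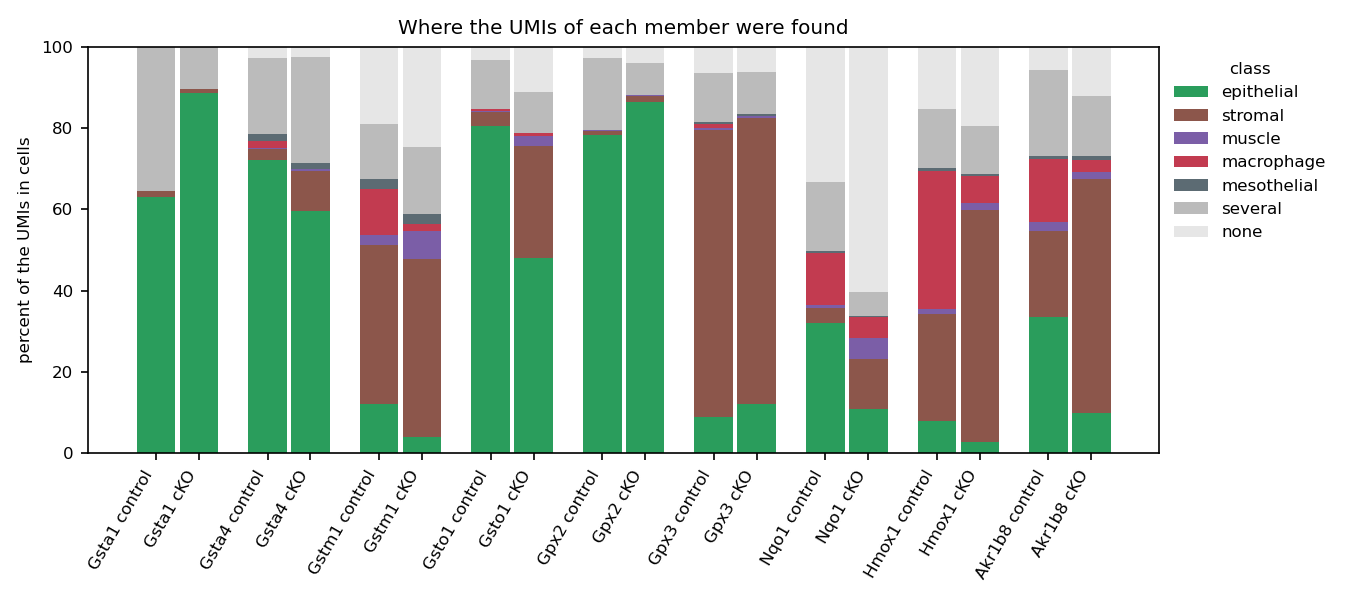
Percent of each member's UMIs in cells (vertical axis) that fell in each class, with 1 stacked bar per member and library; "several" and "none" are cells with more than 1 or no gate gene. Gsta1 and Gpx2 bars are mostly epithelial (green) in both libraries, and the green part of Gsto1 goes from 80.6% in control to 48.0% in cKO.

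Co-expression was described cell by cell within the epithelial class of each library. The points share a library and, unthinned, their depth, and cells are not replicates. In the 953 control cells, Nqo1 and Akr1b8 were found together in 25 cells, where the product of their single shares gives 3.71 (Pearson r 0.469 of log2(CPM + 10)). Gsta1 and Nqo1 were found together in 14 cells against 1.04 (r 0.428), which is 14 of the 16 cells with a Gsta1 UMI. Gpx2 and Nqo1 shared 29 cells against 5.14, and Gsta4 and Nqo1 shared 30 against 6.57. Gsta1 shared 12 cells with Gpx2 against 1.33 and 12 with Gsta4 against 1.70.

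Since deep cells show more genes, the same pairs were counted after 1 random thinning of each cell to 5000 UMIs, which left 544 control cells. Nqo1 and Akr1b8 were then together in 8 cells against 0.772 (r 0.393), Gsta4 and Nqo1 in 8 against 1.07 (r 0.287), Gsta1 and Nqo1 in 5 against 0.221 and Nqo1 and Hmox1 in 19 against 9.01 (r 0.407). At 1000 UMIs the counts were too small for most pairs, with Hmox1 and Akr1b8 together in 7 of 946 cells against 1.95. Such counts of rare genes vary from one thinning to another.

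In the 109 cKO epithelial cells, unthinned, Gsta1 and Gsta4 were together in 8 cells against 1.19 (r 0.733), Gsta4 and Akr1b8 in 10 against 1.55 (r 0.585) and Gsto1 and Gpx2 in 32 against 18.2 (r 0.646). All 32 cells with a Gpx2 UMI thus had a Gsto1 UMI. Thinned to 5000 UMIs (85 cells), Gsto1 and Gpx2 were together in 13 cells against 7.41 and Gpx2 and Gpx3 in 10 against 5.44. Among the 36 keratin-positive cells without Ptprc at that depth, the same pairs were in 13 cells against 12.4 and 10 against 9.33. Gsto1 and Gpx3 were in 21 of those 36 cells against 21.3, with r -0.423. The joint counts of the first 2 pairs were thus those of the whole class, and only the product of the shares was higher in the subset. With Gsto1 in 32 of the 36 cells and Gpx2 in 14, at most 14 cells could hold both, so little excess could be seen there. The mean number of members per cell at 5000 UMIs was 1.73 of 9 in 544 control cells and 2.05 of 9 in 85 cKO cells of the whole class, and 1.74 in 512 and 3.08 in 36 keratin-positive cells without Ptprc. At 1000 UMIs it was 0.715 in 946 control cells and 0.826 in 109 cKO cells of the class.

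Other genes of the pathway were taken from 8 lists of 121 genes in all, chosen with earlier results of these data known. In the epithelial class 98 of them were compared, of which 39 were at least 2-fold higher and 9 at least 2-fold lower in cKO, beside 26.3% and 10.8% of all genes, with a median log2 ratio of 0.82 beside 0.40 for all genes. These counts depended on the scaling: with TMM factors they were 16 and 17, beside 13.5% and 19.7% of all genes. Among 82 list genes in cells of 2000 to 20000 UMIs the counts were 17 higher and 15 lower, beside 32.2% and 18.2% of all genes. Among 95 in cells over 20000 UMIs they were 35 and 8, beside 22.9% and 10.6%. In keratin-positive cells without Ptprc they were 38 and 11 of 93, beside 21.4% and 13.6% of all genes.

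By list, and beside the same 26.3% and 10.8% of all genes, the counts of higher and lower genes in the epithelial class were 8 and 1 of 16 for the other glutathione S-transferases, 5 and 1 of 16 for glutathione synthesis and transport, 6 and 1 of 15 for thioredoxins and peroxiredoxins and 13 and 4 of 28 for quinone, aldehyde and xenobiotic enzymes. All 3 superoxide and peroxide enzymes compared were at least 2-fold higher (Sod1, Sod2 and Cat, named for that count after it was seen), whereas with TMM factors only Cat was. None of the 8 genes of NRF2 and its regulators was 2-fold apart in either direction, and with TMM factors 2 of them were lower (Nfe2l1 and Maff). The glutathione peroxidases other than the members gave 0 higher and 1 lower of 3, and iron storage and pentose phosphate genes gave 4 and 1 of 9. With TMM factors, beside 13.5% and 19.7% of all genes, the counts were 4 and 3 for the transferases, 2 and 2 for glutathione synthesis and transport, 0 and 1 for thioredoxins and peroxiredoxins, 9 and 7 for the quinone, aldehyde and xenobiotic enzymes, 0 and 1 for the peroxidases and 0 and 1 for iron storage and pentose phosphate genes.

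Among the named epithelial genes that were higher, the metallothionein Mt1, which binds zinc and other metals, was at 1000 CPM in control and 4387 CPM in cKO (ratio 4.39), and Mt2 was at 319 and 1345 CPM (ratio 4.22). Single cKO cells held 28.0% of the Mt1 UMIs and 19.95% of the Mt2 UMIs, beside 4.63% and 4.15% in control. Akr1c18, which inactivates progesterone, was at 1.48 and 21.4 CPM (ratio 14.5), with 44.0% and 41.8% of its UMIs in 1 cell. Aldh1a1, a retinaldehyde dehydrogenase, was at 2.48 and 28.1 CPM (ratio 11.3), the alpha-class transferase Gsta3 at 2.36 and 17.6 CPM (ratio 7.43) and Cyp1a1, the target of the aryl hydrocarbon receptor, at 7.85 and 39.6 CPM (ratio 5.04). The top cell held 9.52% of the Aldh1a1 UMIs in control and 25.0% in cKO, 24.1% and 33.1% of the Cyp1a1 UMIs, and 10.0% and 16.4% of the Gsta3 UMIs. Among those that were lower, the intracellular peroxidase Gpx1 was at 1376 and 450 CPM, 3.05-fold lower (2.89 to 3.23). It thus lay on the other side of 1 from Gpx2 and Gpx3 in the same class. Of the 109 cKO cells, 74 had a Gpx1 UMI, 32 a Gpx2 UMI and 48 a Gpx3 UMI. The carbonyl reductase Cbr2 was 3.77-fold lower (439 and 117 CPM), the transferase Gstt2 4.497-fold (22.97 and 5.11 CPM), the iron exporter Slc40a1 3.29-fold (109 and 33.2 CPM), the glutathione-degrading Chac1 2.49-fold (160 and 64.2 CPM) and the stress-induced Sesn2 2.24-fold (108 and 48.2 CPM).

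In stroma, 99 list genes were compared, 3 of them at least 2-fold higher and 7 lower, beside 6.22% and 6.44% of all genes, and 6 of the 7 were among the 15 transferases and related enzymes compared. Over the settings tried the counts ran from 2 to 8 higher and from 4 to 10 lower. Gstt1 was 3.31-fold lower (12.96 and 3.91 CPM), Gstt2 3.31-fold (6.54 and 1.97 CPM), the membrane-bound Mgst1 2.08-fold (65.6 and 31.6 CPM) and the epoxide hydrolase Ephx1 2.99-fold (16.6 and 5.55 CPM). The cystine transporter Slc7a11, which supplies glutathione synthesis, was at 141 and 274 CPM, a ratio of 1.94 (1.82 to 2.06). Under 2-fold, the alcohol dehydrogenase Adh1 was at 78.8 and 135 CPM, Slc3a2, the partner of Slc7a11, at 391 and 524 CPM, Akr1c14 at 44.4 and 66.9 CPM and Slc40a1 at 13.6 and 23.8 CPM. The cytochrome P450 reductase Por was at 290.01 and 148 CPM and Txn1 at 803 and 486 CPM. The Cyp1a1 count of 0 UMIs in control and 56 in cKO stroma came to 69.6% from 1 cell.

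In muscle, 5 of 75 list genes were higher and 3 lower, beside 8.90% and 3.71% of all genes. The balance changed with the cells taken: it was 4 and 13 of 93 in all Actg2-positive cells (7.63% and 8.04% of all genes), 11 and 2 of 65 in cells of 2000 to 20000 UMIs (10.6% and 3.83%) and 5 and 16 of 38 in cells over 20000 UMIs (20.4% and 12.7%). Slc7a11 was at 157 and 393 CPM (ratio 2.51), Gclc, the catalytic subunit of the rate-limiting enzyme of glutathione synthesis, at 163 and 365 CPM (ratio 2.23), Chac1 at 23.5 and 69.1 CPM (ratio 2.94), the peroxiredoxin Prdx6 at 131 and 262 CPM (ratio 2.00) and the malic enzyme Me1 at 31.4 and 68.0 CPM (ratio 2.17). Of the Slc7a11 UMIs, 35% in control and 16.7% in cKO were in 1 cell. The top cell held 15.2% and 28.7% of the Gclc UMIs and 33.3% and 12.3% of the Chac1 UMIs, of which control had 18. For Prdx6 it held 11.0% and 7.36%, and for Me1 8.33% and 5%. Under 2-fold, Prdx1 was at 870 and 1441 CPM, Prdx2 at 178 and 95.2 CPM, Gpx1 at 913 and 574 CPM, Txn1 at 513 and 398 CPM, Por at 82.4 and 54.97 CPM and the esterase Esd at 524 and 438 CPM. The muscle ratio furthest from 1, that of Cyp1a1, was 234 UMIs against 1 with 99.6% of the control UMIs in 1 cell.

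In macrophages, 2 of 70 list genes were higher and 10 lower, beside 12.6% and 4.01% of all genes. With TMM factors the counts were 1 and 18, beside 7.14% and 6.81%. Over the settings tried the lower count went from 6 to 18. Prdx1, a peroxiredoxin, was at 12630 and 6027 CPM (2.10-fold lower), Gclm, the modifier subunit paired with Gclc, at 1270 and 597 CPM (2.13-fold), thioredoxin Txn1 at 1064 and 505 CPM (2.11-fold), Akr1a1 at 1039 and 489 CPM (2.12-fold), Akr1b3 at 266 and 75.9 CPM (3.51-fold) and Mgst1 at 60.9 and 19.0 CPM (3.21-fold). The named genes that were higher in macrophages all lay under 2-fold: the small Maf factor Maff (118 and 187 CPM), Glrx3 (34.7 and 62.95 CPM), Nfe2l1 (94.6 and 143 CPM), Txn2 (32.2 and 54.3 CPM), Tkt (109.7 and 148 CPM) and Glrx5 (28.2 and 44.8 CPM). The top cell held 4.26% of the Maff UMIs in control and 32.7% in cKO, and 4.79% and 16.3% of the Nfe2l1 UMIs. Among the lower genes it held 3.26% and 19.5% of the Txn1 UMIs and 8.26% and 18.2% of the Mgst1 UMIs. In the mesothelial class 5 of 60 were higher and 1 lower, beside 14.3% and 4.09% of all genes, or 5 and 5 with TMM factors, beside 10.3% and 6.60%. In all Msln-positive cells they were 7 and 7 of 84, beside 7.93% and 5.48%. In the gated mesothelial class itself (26 control and 35 cKO cells), Prdx6 was at 64.4 and 150.5 CPM (ratio 2.34). The top cell held 25.0% of its UMIs in control and 29.1% in cKO. Cyp1a1 had 0 UMIs in control and 361 in cKO there, 99.4% of them in 1 cell. Under 2-fold, Sqstm1 was at 403 and 706 CPM, Akr1b3 at 266 and 465 CPM, Akr1c14 at 105 and 175 CPM, Fth1 at 3713 and 4156 CPM, Ftl1 at 1784 and 1196 CPM, Txnip at 540 and 358 CPM and Mgst1 at 419 and 282 CPM. For these genes the top cell held from 12.5% (Akr1c14, cKO) to 43.0% (Fth1, control) of the UMIs, and for Sqstm1 25% and 39.9%.

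**Figure D5:**
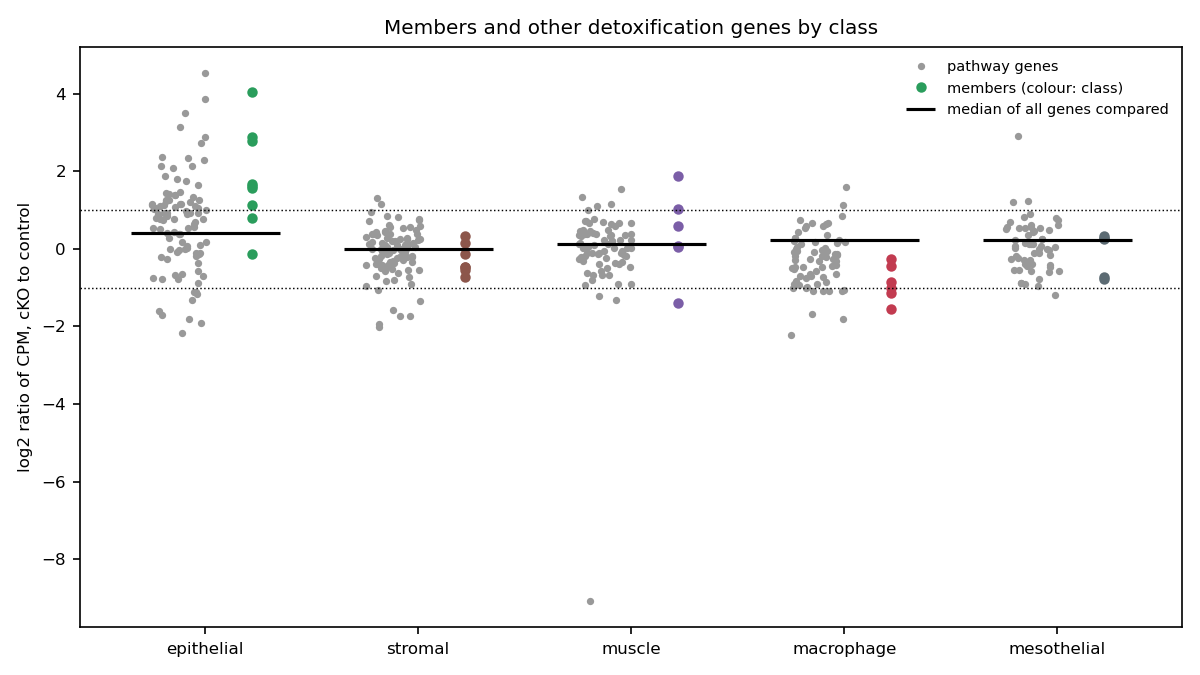
Log2 ratio of cKO to control CPM (vertical axis) in 5 classes for the pathway genes (grey) and the members (coloured) with at least 20 UMIs over both libraries; black bars give the median of all genes compared, dotted lines mark 2-fold, and genes at 0 in 1 library are not drawn. The epithelial members spread from just under 0 to 4.04, the macrophage members lie below 0, and the lowest grey point is Cyp1a1 in muscle, with 99.6% of its control UMIs in 1 cell.

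The genes whose class pattern was most like each member were found over the 10 sums (5 classes in 2 libraries) by Pearson correlation of log2(CPM + 10) among 12765 genes. Fgfbp1, Psca and Grb14 stood nearest to Gsta1 (r 0.999 or more), and Foxn1, Grb14 and Psca nearest to Gpx2 (0.998), where r rests mainly on the 2 epithelial sums. Efhd1 (0.984), Krt80 (0.983) and Serpina1e (0.983) were nearest to Gsto1, and Tesc (0.961), Pex11g (0.953) and Nudt14 (0.949) to Gsta4. Plekhf1 (0.964), Tac1 (0.958) and Surf6 (0.914) were nearest to Gpx3, and Susd3 (0.965), Prr13 (0.939) and Ptgr1 (0.934) to Nqo1. For Hmox1 they were Zdhhc20 (0.972), Soat1 (0.963) and Procr (0.961), for Gstm1 Trpm7 (0.915) and Atr (0.911), and for Akr1b8 Tmem104 (0.869), Tmem67 (0.843) and Syngr1 (0.841). The 10 sums share 2 libraries, and with 12765 candidates high values are found for any pattern.

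Within the 946 control epithelial cells thinned to 1000 UMIs, only Gsto1 and Hmox1 were in enough cells for such a comparison. Hmox1 was nearest to the ferritin subunits Fth1 (r 0.441) and Ftl1 (r 0.409), which store iron, and to the thioredoxin reductase Txnrd1 (r 0.382). Gsto1 was nearest to S100a6 (r 0.314), Sprr2f (r 0.311) and Prxl2a (r 0.271). The other 7 members had a UMI in 3 to 19 of those cells, and their nearest genes vary from one thinning to another.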

How the data were processed

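Droplet-based 3' single-cell RNA sequencing of 2 whole-uterus libraries was used, 1 per group and each a pool of 3 mice. The deposited values are raw UMI counts per gene and barcode, unfiltered; per the file headers they were written by Cell Ranger 4, while the submitters' processing notes name Cell Ranger 6.1.1 and the mm10 build. The annotation and the handling of reads common to similar genes are not given in the sources used here. The libraries held 45035801 (control) and 57145553 (cKO) UMIs over 1214689 and 1359477 barcodes, of which 83.7% and 92.6% fell in cells.

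From these counts, cells (at least 500 genes, at most 20% mt- UMIs; 283 control and 46 cKO barcodes exceeded that limit) were gated by 1 gene each and summed per class and library. Genes with at least 20 UMIs over both libraries were compared by the ratio of CPM with an exact conditional binomial 95% interval, and called at 2-fold. With 1 library per group no test was run. Expected thinned shares are exact over all draws of 1000 UMIs per cell, and shallower cells were left out (7 of 953 control and 0 of 109 cKO epithelial cells). Pairs of genes in thinned cells rest on 1 seeded draw. A share of 0 allows up to 3 counts of the total. Doublets were kept: a Scrublet score over 0.25 marked 27 control (0.739%) and 65 cKO (1.31%) cells, whose removal was an alternative. TMM factors came from edgeR 4.0.16 in R 4.3.3. Python 3.11.15, numpy 2.4.6, scipy 1.17.1, pandas 2.3.3, scanpy 1.11.5 and matplotlib 3.10.9 were used, and the ratio and interval code was tested on simulated data. Of 32285 gene identifiers, 32235 (99.8%) were found in GENCODE M21 on GRCm38, which gave the gene positions.

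The members and the gene lists were chosen with earlier results of these data known. Named genes were all 9 members, the 3 genes most like each member over the 10 sums and over control epithelial cells, and in each class up to 6 list genes per direction: those whose nearer interval bound lay furthest from 1, if the library with the higher level had 50 UMIs or more. The genes nearest to 7 members over control epithelial cells and one other gene that this rule names are not reported here. The alternatives changed the cell filters, gates, doublets, scaling, cell weight, depth, free RNA (the profile of barcodes with at most 100 UMIs, subtracted at 5%) and low-count minimum, and left out, for the members only, the cell with most UMIs of the gene.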

Additional observations from a re-analysis of the deposited data

Results flagged for a closer look

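For 4 members, the log2 ratio of cKO to control had opposite signs in 2 classes with counting intervals on either side of 0. With 1 library per group none of these differences was tested. Gstm1, the mu-class transferase, was at 1.68 in the epithelial class and -1.14 in the macrophage class. Gpx3, the secreted peroxidase, was at 4.04 in the epithelial class and -0.56 in the stromal class. Hmox1, the heme oxygenase, was at 1.61 in the epithelial class and -0.85 in the macrophage class. Akr1b8, the aldo-keto reductase, was at 0.80 in the epithelial class and -1.55 in the macrophage class.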

How the results depend on the processing

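Over 466 alternatives to the log2 ratios of single members, 332 fell within the counting interval of the reported value, 128 fell outside it and 6 took the other sign from a reported value of at least 2-fold. Another 35 alternatives, to 12 values reported under 2-fold, also took the other sign. In the epithelial class Gpx3 stayed between 3.17 and 4.35, Gpx2 between 1.23 and 3.25, Gsta1 between 1.53 and 2.97, Gstm1 between 1.15 and 2.27, Hmox1 between 0.68 and 1.82 and Nqo1 between 0.21 and 2.57, all positive. These ranges cover 14 alternatives for Gsta1 and Gpx2 and 15 for the others, since no ratio was formed without a cKO UMI. Gsta1 had none in cKO cells of 2000 to 20000 UMIs. Gpx2 had none after thinning to 1000 UMIs (8 of 946 control and 0 of 109 cKO cells). Gsto1 went from -2.28 to 0.07 and Akr1b8 from -1.08 to 0.98. The 6 changes of sign came to -0.58 for epithelial Gsta4 with cells thinned to 1000 UMIs (13 against 1 UMIs) and -0.081 in cells of 2000 to 20000 UMIs. In muscle they were -0.57 for Nqo1 with the gate gene whatever the others and -1.37 in cells over 20000 UMIs, and -0.52 for Gstm1 in those cells. In macrophages Gpx3 came to 0.42 with the gate gene whatever the others. Macrophage Hmox1 stayed between -1.13 and -0.75 and Akr1b8 between -1.83 and -0.91. The causes were not tested.

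Counts of members at least 2-fold apart that moved by more than 1.5 times follow, each with the percent of all genes higher and lower in parentheses. The epithelial count of 7 was 4 of 4 compared with thinned cells (22.3% and 21.2%), 3 higher and 1 lower. The stromal count of 0 was 1 with no UMI minimum (19.7% and 14.4%) and 1 in cells over 20000 UMIs (8.80% and 5.41%). The muscle count of 3 was 5 with no minimum (23.5% and 15.4%), 1 thinned (10.8% and 3.77%) and 1 over 20000 UMIs (20.4% and 12.7%). The macrophage count of 3 was 1 with the gate gene whatever the others (11.3% and 4.35%), 1 with the gate gene of most UMIs (13.2% and 3.63%) and 1 thinned (8.74% and 6.69%). The mesothelial count of 0 was 2 with no minimum (31.6% and 15.4%), 7 with the gate gene whatever the others (7.93% and 5.48%), 1 without the top cell (14.3% and 4.09%), 1 at 2000 to 20000 UMIs (9.33% and 5.51%) and 1 over 20000 UMIs (23.2% and 8.36%). The top cell was left out for the members only, so the shares of all genes beside that count still include every cell. Smaller moves included an epithelial count of 6 with TMM factors (13.5% and 19.7%), with means of single-cell CPM (5 higher and 1 lower, beside 30.7% and 16.7%), with the gate gene whatever the others (29.5% and 9.70%) or of most UMIs (26.4% and 9.88%), at 2000 to 20000 UMIs (32.2% and 18.2%), over 20000 UMIs (22.9% and 10.6%) and in keratin-positive cells without Ptprc (21.4% and 13.6%). The macrophage count was 4 with TMM factors (7.14% and 6.81%) and with no minimum (22.3% and 17.6%). Settings on depth ranges, keratin and Ptprc were chosen after seeing the data. No paired analysis was possible because each group is 1 library.

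Precision is limited by the 109 cKO epithelial cells, of which 57 had a single Epcam UMI, and by the few cells that hold most UMIs: 1 cKO cell held from 13.8% (Gstm1) to 36.7% (Akr1b8) of each member's epithelial UMIs.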

Other observations

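Cells with none of the 5 gate genes held much of the Nqo1 signal, and values for subsets of them are given without a test. Among ungated cells with a UMI of Ccr7, a receptor of migratory dendritic cells (153 control and 243 cKO cells), Nqo1 was at 124 CPM in control and 180 CPM in cKO, and was detected in 28.1% and 42.8% of cells. Those levels lay above the macrophage class (71.5 and 59.5 CPM). Among ungated cells with a UMI of the endothelial cadherin Cdh5 and none of Ptprc (22 and 42 cells), Nqo1 was at 351 CPM in control, with 49.5% of its UMIs in 1 cell, and at 36.6 CPM in cKO, and Hmox1 was at 4653 and 5905 CPM, with 56.4% and 28.8% of its UMIs in 1 cell.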
